A study of Homo sapiens with 12 samples.

Results

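The genes described here are the retinoblastoma (RB) family, the E-type cyclins and 5 E2F transcription factor genes, most of them repressors. The set holds 10 genes of the 23228 in the count files: RB1, RBL1, RBL2, CCNE1, CCNE2, E2F3, E2F4, E2F5, E2F7 and E2F8. They were taken by symbol, and all 10 had counts in all 12 libraries and passed the filter on low counts. PolyA RNA was sequenced from C4.2B cells, a castration-resistant human prostate cancer line derived from LNCaP and carrying a PI3K pathway alteration, in 4 arms with 3 libraries each (A, B and C). The DMSO arm received vehicle. The GDC arm received the PI3K inhibitor GDC-0941 at 0.5 µM for 24 h, the GSK arm received the EZH2 inhibitor GSK126 at 5 µM, and the COMBO arm received both agents at these doses. Cells of the GSK and COMBO arms had been kept in GSK126 for 6 days before the last 24 h, whereas cells of the GDC arm had not been exposed to GDC-0941 before, so the single agents differ in length of exposure as well as in target. In all 4 arms, cells were seeded at 250000 per plate and kept for the last 24 h in medium with 10% charcoal-stripped FBS, which is low in androgens. All libraries came from 1 cell line.

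RB1, RBL1 (p107) and RBL2 (p130) encode the pocket proteins, which bind E2F factors and hold genes of S phase entry silent until cyclin-dependent kinases phosphorylate them. RB1 mainly binds activating E2F factors such as E2F3, while RBL1 and RBL2 bind E2F4 and E2F5 within the DREAM complex, in which the MuvB core recognises the CHR element of promoters. Cyclin E1 and cyclin E2 (CCNE1 and CCNE2) activate CDK2 at the G1 to S transition, and E2F7 and E2F8 are atypical factors that repress E2F targets without a pocket protein or a DP partner. Several of these genes are textbook E2F targets themselves, so that the network regulates its own parts.

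Promoter sequences of 4 genes are shown because their messages took different courses across the arms. RBL1, E2F7 and E2F3 fell in every treated arm, and RBL2 rose in GDC and COMBO. Each is 300 bases from RefSeq (GRCh38.p14), from 250 bases before the annotated start to 50 bases after it, written 5′ to 3′ along the gene. Capitals mark matches on either strand to an E2F motif (TTGGCGC or TTCCCGC or TTCGCGC or TTGCCGC), a CHR motif (TTTGAA or TTCGAA) or CCAAT, and no 2 matches share a base.
RBL1, chr20:37095948-37096247, minus strand: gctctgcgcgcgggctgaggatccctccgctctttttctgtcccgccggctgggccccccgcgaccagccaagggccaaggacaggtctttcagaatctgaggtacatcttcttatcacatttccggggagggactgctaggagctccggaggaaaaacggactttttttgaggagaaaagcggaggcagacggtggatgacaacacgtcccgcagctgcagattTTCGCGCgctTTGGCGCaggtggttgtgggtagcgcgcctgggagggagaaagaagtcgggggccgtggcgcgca
E2F7, chr12:77065520-77065819, minus strand: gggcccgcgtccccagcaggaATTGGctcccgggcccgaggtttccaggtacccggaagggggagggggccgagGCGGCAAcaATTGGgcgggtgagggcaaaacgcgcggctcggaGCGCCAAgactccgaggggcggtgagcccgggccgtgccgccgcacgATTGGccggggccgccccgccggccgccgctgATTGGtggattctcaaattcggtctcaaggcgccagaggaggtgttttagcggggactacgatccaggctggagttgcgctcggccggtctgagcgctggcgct
E2F3, chr6:20401629-20401928, plus strand: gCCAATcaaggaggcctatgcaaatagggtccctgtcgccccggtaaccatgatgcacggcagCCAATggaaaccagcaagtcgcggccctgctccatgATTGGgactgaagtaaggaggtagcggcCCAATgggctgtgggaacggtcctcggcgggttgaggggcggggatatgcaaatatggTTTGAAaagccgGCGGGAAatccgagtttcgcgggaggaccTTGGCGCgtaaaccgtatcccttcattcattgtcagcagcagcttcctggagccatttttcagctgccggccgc
RBL2, chr16:53434221-53434520, plus strand: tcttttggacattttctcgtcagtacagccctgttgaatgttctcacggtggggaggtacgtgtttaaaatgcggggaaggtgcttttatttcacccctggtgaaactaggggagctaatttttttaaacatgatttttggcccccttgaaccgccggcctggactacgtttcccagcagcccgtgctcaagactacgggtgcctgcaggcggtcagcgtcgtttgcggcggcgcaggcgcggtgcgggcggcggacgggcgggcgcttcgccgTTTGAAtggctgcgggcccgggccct
The RBL1 window held 2 E2F motifs within 25 bases of the start, and the E2F7 window held 2 E2F motifs and 4 CCAAT motifs. The E2F3 window held 2 E2F motifs, 4 CCAAT motifs and 1 CHR motif, while the RBL2 window held no E2F motif and 1 CHR motif that began at base 25 after the start. Among 35116 promoter windows of this length, 13.0% held an E2F motif, 16.4% a CHR motif and 34.6% CCAAT. The RBL2 start lies 494 bases inside the GENCODE gene. The source holds a second window each for RBL2, with 1 CCAAT motif, and E2F3, with no match. The windows of CCNE1 and E2F4, which also fell in COMBO (to 32.6% and 59.7% of the DMSO level), held no match to these motifs. The RB1 window, which lies 172706 bases into the gene, held none either. A match describes the letters of a window, and no binding was measured here.

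The libraries held 8785218 to 44437751 counts in genes, and a member's count in a library ran from 43 to 7056. The 3 counts that a 0 allows correspond to at most 0.341 CPM (counts scaled to a common library size). The deepest library was DMSO C. Replicate libraries all differed beyond sampling noise, pair by pair (chi-square per degree of freedom 1.82 to 6.69), so each was counted as its own sample; p-values measure the spread between these plates of 1 line. The 7 prostate luminal markers read, KLK3 and FOLH1 among them, were all detected in every arm, with a summed level of 2796 to 5021 CPM, while the 3 basal markers summed to at most 0.355 CPM. Among markers of other cells, PTPRC, CD3E, PECAM1 and CDH5 were at or near 0, but CD68 carried an immune sum of 4.84 to 9.58 CPM and VWF an endothelial sum of 2.74 to 6.89 CPM. The 5 stromal markers, nearly all of it COL1A1, summed to 10.3 to 11.7 CPM in DMSO, 11.1 to 14.3 CPM in GDC, 26.1 to 38.3 CPM in GSK and 29.4 to 48.4 CPM in COMBO, and the part of this difference in the results was not tested. The share of reads outside annotated genes was 14.2% ± 0.481 with DMSO, 15.6% ± 0.268 with GDC-0941, 18.8% ± 0.264 with GSK126 and 21.8% ± 1.07 with both (SD, n = 3). It therefore moved with the arms, in the same order as most members fell, and its part in the results was not tested.

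In cells treated with both agents, 9 of the 10 members were lower than in DMSO, against 39.2% of all tested genes, and RBL2 was higher, as were 43.3% of tested genes. E2F8 and E2F7 changed most, to 7.72% and 11.4% of their DMSO level, followed by CCNE2 at 15.4%, RBL1 at 22.7% and CCNE1 at 32.6%. E2F3 and E2F4 kept 53.1% and 59.7% of the DMSO level, and E2F5 70.8%. RB1 moved least, to 89.0%, and RBL2 stood at 125%. All 10 members therefore passed the test in COMBO (edgeR quasi-likelihood test, adjusted p under 0.05 over 14189 genes), where 82.5% of all tested genes did. At a fold of at least 2, 5 members were lower (RBL1, CCNE1, CCNE2, E2F7 and E2F8), against 11.2% of tested genes. The libraries of 9 members did not overlap those of DMSO (82.0% of tested genes), RB1 being the exception. The median log2 fold change was -1.27 over the members and 0.054 over all tested genes. In a bulk measurement, fewer cells in a phase of the cell cycle and less message per cell cannot be told apart.

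**Figure D1:**
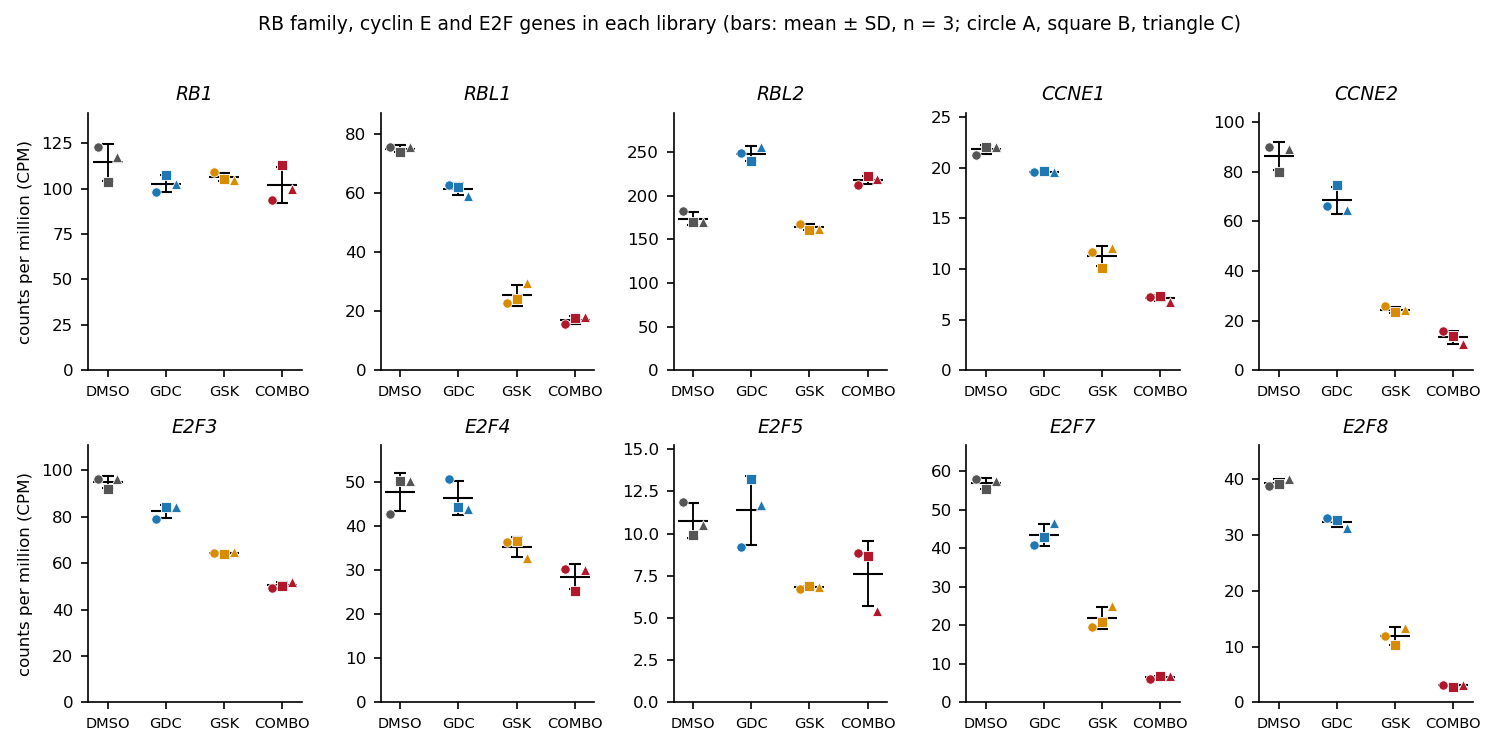
CPM (y axis, from 0) of each of the 10 genes in the 12 libraries by arm (x axis), with the mean and SD of 3 libraries as bars. RBL1, CCNE1, CCNE2, E2F3, E2F7 and E2F8 step down from DMSO through GDC and GSK to COMBO, RB1 overlaps in all arms, and RBL2 is higher in GDC and COMBO.

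With GDC-0941 alone, 6 of 10 members passed the test, against 40.1% of all tested genes. RBL2 was higher (20.0% of tested genes), and RBL1, CCNE2, E2F3, E2F7 and E2F8 were lower (20.0%), none of them by a fold of 2, as 0.148% of tested genes were. The libraries of 7 members, these 6 and CCNE1, did not overlap those of DMSO, against 50.7% of tested genes. With GSK126 alone, 8 of 10 passed, against 75.7% of tested genes, and all 8 were lower, against 35.7%. The libraries of 9 members, RBL2 included, did not overlap those of DMSO (76.5% of tested genes). Of the 8, 4 were lower by at least a fold of 2 (RBL1, CCNE2, E2F7 and E2F8), against 5.86% of tested genes. The median over the members was -0.18 in GDC and -0.80 in GSK on the log2 scale, beside 0.016 and 0.058 over all tested genes. These comparisons and the one for COMBO use the same DMSO libraries and so are not independent of each other.

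**Figure D2:**
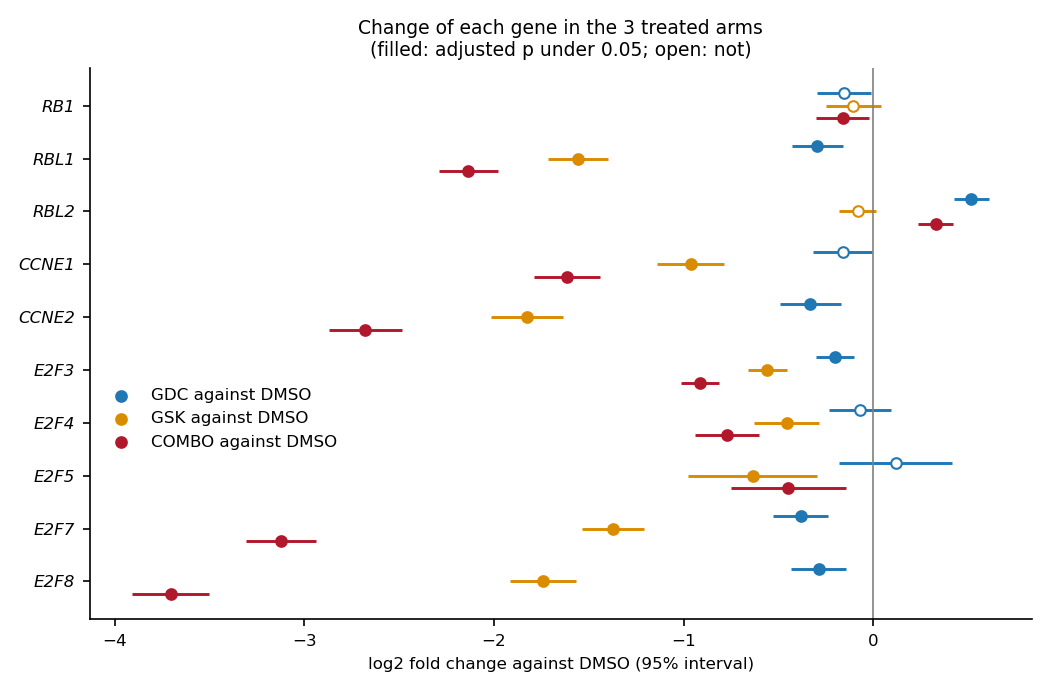
log2 fold change of each gene against DMSO (x axis) in the GDC, GSK and COMBO arms, with 95% intervals from the edgeR quasi-likelihood fit; open points did not pass an adjusted p of 0.05. COMBO lies below GSK and GSK below GDC for RBL1, CCNE1, CCNE2, E2F3, E2F4, E2F7 and E2F8, while RBL2 lies above 0 in GDC (0.52) and COMBO (0.33).

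Among the pocket proteins, the 3 genes took 3 different courses. RB1 (chr13:48303744-48599436, plus strand in GENCODE 44, GRCh38), the tumour suppressor that gives the family its name, was measured at 123, 103 and 117 CPM in the DMSO libraries A, B and C. It stood at 98.1, 108 and 102 CPM in GDC, at 109, 106 and 104 CPM in GSK, and at 93.5, 113 and 99.6 CPM in COMBO. The range of every treated arm overlapped that of DMSO. Its log2 fold change after GDC-0941 was -0.15 ± 0.068 (SE; adjusted p = 0.0802) and after GSK126 -0.10 ± 0.069 (adjusted p = 0.175). With both agents it was -0.16 ± 0.067 (adjusted p = 0.0327; edgeR quasi-likelihood test). The COMBO call depended on single libraries, on the filter and on the scaling: without DMSO A, DMSO C or COMBO A the adjusted p was 0.0987, 0.113 or 0.169, with a filter at a mean of 1 CPM it was 0.0855, without COMBO B the value was -0.24, and with library totals as the scale the sign turned to 0.046. The GDC value passed without DMSO B (adjusted p = 0.00544), GDC B (0.0255), GSK A (0.0378), GSK B (0.0358), COMBO A (0.0227) or COMBO B (0.0269), and the GSK value passed without DMSO B (0.0139). All 12 libraries share 1 fit, so libraries of other arms also enter a comparison. Without GSK A, GSK B, COMBO A or COMBO B, all tested genes in GDC moved by a median of -0.040, -0.040, -0.039 or -0.0092. Without DMSO B or GDC B they moved by -0.037 or -0.042, and with the DESeq2 size factors by -0.042. In GSK they moved by -0.026 without DMSO B.

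RBL1 encodes p107, a pocket protein abundant in cycling cells, and its gene lies at chr20:36996349-37095997 on the minus strand. It fell in every treated arm. The DMSO libraries held 75.9, 73.9 and 75.9 CPM and the GDC libraries 62.9, 62.2 and 59.0 CPM. With GSK126 it was at 22.6, 24.2 and 29.5 CPM, and with both agents at 15.6, 17.8 and 17.9 CPM. No arm overlapped another. Against DMSO, RBL1 changed by -0.29 ± 0.065 on the log2 scale after GDC-0941 (adjusted p = 0.00129), by -1.56 ± 0.075 after GSK126 (adjusted p = 2.94e-13) and by -2.14 ± 0.074 after both (adjusted p = 6.04e-16; edgeR quasi-likelihood test). Of the 14189 tested genes, 225, or 1.59%, had a lower log2 fold change in COMBO.

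RBL2 encodes p130, the pocket protein typical of quiescent cells, and lies at chr16:53433977-53491648 on the plus strand. It rose with GDC-0941, alone or on top of GSK126, and is the 1 member that rose in any comparison. The DMSO libraries held 182, 170 and 170 CPM, and the GDC libraries 249, 240 and 257 CPM. The GSK libraries held 168, 161 and 162 CPM, and the COMBO libraries 213, 223 and 219 CPM. GDC and COMBO lay wholly above DMSO, and GSK lay just below it. The log2 fold change was 0.52 ± 0.045 in GDC (adjusted p = 4.32e-08), where 90.3% of tested genes had a lower value, and 0.33 ± 0.044 in COMBO (adjusted p = 9.51e-07; edgeR quasi-likelihood test). COMBO was 0.41 ± 0.045 above GSK (adjusted p = 3.52e-07) and -0.19 ± 0.044 from GDC (adjusted p = 0.000746), which became -0.12 with a filter at a mean of 1 CPM and lost its call with library totals as the scale (-0.015, adjusted p = 0.758). On that scale the COMBO value against DMSO was 0.54. In GSK the log2 fold change was -0.083 ± 0.046 (adjusted p = 0.107), and this value passed without DMSO B (0.0321), DMSO C (0.0460), GDC A (0.0234), GDC B (0.0216), GDC C (0.0380), GSK A (0.0207), COMBO A (0.0220) or COMBO C (0.0263). Without GDC A, GDC B, GDC C, COMBO A or COMBO C, all tested genes in GSK moved by a median of -0.044, -0.041, -0.027, -0.038 or -0.037. Without DMSO B, DMSO C or GSK A they moved by -0.026, -0.023 or -0.042. RBL2 shares exon bases with AKTIP, its neighbour, and whether the counting used strand is not given in the sources used here.

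The ratio of RBL2 to RBL1 counts within a library restates these changes in the same libraries on a measure that does not depend on the scaling between libraries. There were 2.40, 2.30 and 2.24 RBL2 counts for each RBL1 count in the DMSO libraries and 3.95, 3.86 and 4.35 in GDC. The ratio was 7.43, 6.67 and 5.50 in GSK and 13.6, 12.5 and 12.2 in COMBO. No arm overlapped another. The change from DMSO on the log2 scale was 0.81, 1.49 and 2.46 in GDC, GSK and COMBO (exact permutation test, two-sided, p = 0.1 for each, the smallest that 3 against 3 libraries allow; adjusted p = 0.171 over 12 ratio comparisons). Per exon length, RBL2 made up 41.3% ± 1.01 of the summed pocket protein level in DMSO and 59.0% ± 1.65 in COMBO (SD, n = 3), while RBL1 went from 24.4% ± 0.848 to 6.29% ± 0.288. RB1 held 34.3% ± 1.53 and 34.7% ± 1.64, and the summed level was 51.9 ± 2.48 RPKM (CPM divided by the exon length in kilobases) in DMSO and 45.6 ± 2.30 RPKM in COMBO.

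**Figure D3:**
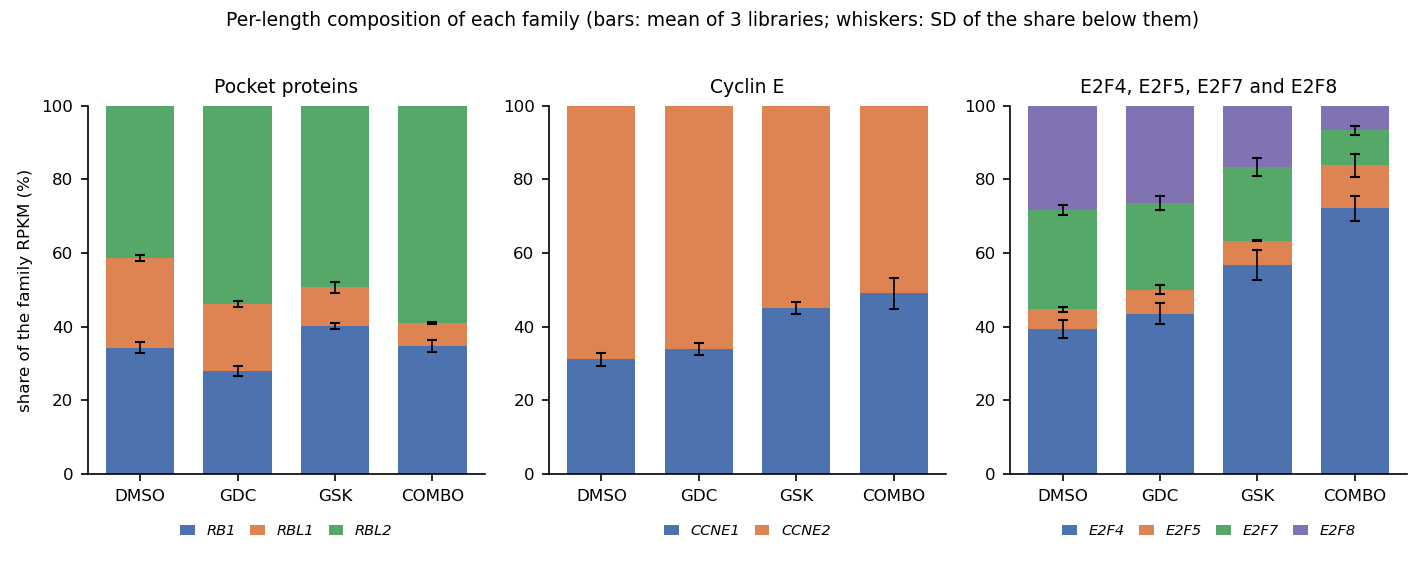
Share (%) of the summed RPKM that each gene holds in the pocket protein, cyclin E and repressor E2F families (stacked bars, mean of 3 libraries per arm, whiskers SD). RBL1 shrinks to 6.29% of the pocket proteins in COMBO, the cyclin E genes come to near equal shares, and E2F4 grows to 72.2% of its group as E2F7 and E2F8 shrink.

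Both E-type cyclins fell with GSK126 and fell further with both agents. CCNE1 (chr19:29811991-29824312, plus strand) was at 21.3, 22.1 and 22.1 CPM in DMSO and at 19.5, 19.7 and 19.6 CPM in GDC. It was at 11.6, 10.1 and 12.03 CPM in GSK and at 7.20, 7.32 and 6.77 CPM in COMBO. The 4 arms were separate from each other. The GDC value of -0.16 ± 0.074 on the log2 scale did not pass (adjusted p = 0.0963), although it did without DMSO A (0.0393), GSK A (0.0431), GSK B (0.0330) or COMBO A (0.0379). In these fits all tested genes in GDC moved by a median of -0.045, -0.040, -0.040 or -0.039. GSK and COMBO gave -0.96 ± 0.084 (adjusted p = 2.69e-09) and -1.62 ± 0.083 (adjusted p = 3.37e-13; edgeR quasi-likelihood test).

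CCNE2 (chr8:94879770-94896678, minus strand) changed more than CCNE1 in GSK and COMBO. Its libraries held 90.1, 79.7 and 89.1 CPM in DMSO and 66.0, 74.5 and 64.6 CPM in GDC. They held 25.7, 23.2 and 24.2 CPM in GSK and 15.7, 13.7 and 10.6 CPM in COMBO. No arm overlapped another, and DMSO B and GDC B came nearest to each other. The log2 fold changes were -0.33 ± 0.077 (adjusted p = 0.00195), -1.83 ± 0.091 (adjusted p = 4.63e-13) and -2.68 ± 0.092 (adjusted p = 5.22e-16; edgeR quasi-likelihood test). In GSK, 53 of 14189 tested genes had a lower log2 fold change. CCNE2 shares exon bases with INTS8.

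There were 0.236, 0.277 and 0.248 CCNE1 counts for each CCNE2 count in the DMSO libraries, and 0.296, 0.264 and 0.303 in GDC. The ratio was 0.453, 0.435 and 0.497 in GSK and 0.459, 0.536 and 0.641 in COMBO. GSK and COMBO lay above DMSO without overlap (exact permutation test, two-sided, p = 0.1 each, adjusted p = 0.171), whereas GDC overlapped it (p = 0.2, adjusted p = 0.300). The summed cyclin E level per exon length was 28.5 ± 1.20 RPKM with DMSO, 23.5 ± 1.24 with GDC-0941, 10.1 ± 0.639 with GSK126 and 5.91 ± 0.685 with both (SD, n = 3). CCNE1 held 31.1% ± 1.76 of it in DMSO and 49.1% ± 4.17 in COMBO.

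E2F3, which encodes both an activating and a shorter form and is the activator-class gene of the set, fell by small steps. It lies at chr6:20401879-20493714 on the plus strand. Its DMSO libraries held 96.3, 92.0 and 96.3 CPM, the GDC libraries 79.0, 84.0 and 84.0 CPM, the GSK libraries 64.5, 63.7 and 64.8 CPM and the COMBO libraries 49.1, 50.1 and 51.9 CPM. The arms were fully separate, with little spread inside each. Its log2 fold change was -0.20 ± 0.047 with GDC-0941 (adjusted p = 0.00190), -0.56 ± 0.049 with GSK126 (adjusted p = 2.70e-09) and -0.91 ± 0.048 with both (adjusted p = 4.75e-13; edgeR quasi-likelihood test). Gene counts cannot separate the forms, and GENCODE names 2 pseudogenes of E2F3.

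E2F4, the repressor that is most abundant in many cell types and the DREAM partner of RBL1 and RBL2, was not distinguished from DMSO by GDC-0941 alone. Its gene lies at chr16:67192155-67198918 on the plus strand. The libraries held 42.7, 50.3 and 50.3 CPM in DMSO, 50.7, 44.4 and 43.8 CPM in GDC, 36.4, 36.7 and 32.7 CPM in GSK and 30.2, 25.3 and 30.1 CPM in COMBO. GDC overlapped DMSO, GSK lay below both and COMBO below GSK. The log2 fold changes were -0.069 ± 0.078 (adjusted p = 0.515; 95% interval -0.23 to 0.094), -0.46 ± 0.083 (adjusted p = 5.06e-05) and -0.77 ± 0.080 (adjusted p = 2.28e-08; edgeR quasi-likelihood test). The step from GSK to COMBO was -0.31 ± 0.088 (adjusted p = 0.00634) and missed the threshold without GSK B (adjusted p = 0.0568). GENCODE names 1 pseudogene, E2F4P1.

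E2F5, the closest relative of E2F4, had the lowest level per exon length of all members in DMSO, GDC and GSK, and its libraries spread widely in GDC and COMBO. Its gene lies at chr8:85177154-85217158 on the plus strand. It stood at 11.9, 9.90 and 10.5 CPM in DMSO, at 9.19, 13.2 and 11.7 CPM in GDC, at 6.70, 6.88 and 6.86 CPM in GSK and at 8.82, 8.65 and 5.39 CPM in COMBO. GSK and COMBO lay below DMSO, COMBO C lay well below the other COMBO libraries, and GDC overlapped DMSO. The log2 fold changes were 0.12 ± 0.14 (adjusted p = 0.542), -0.64 ± 0.16 (adjusted p = 0.00150) and -0.45 ± 0.15 (adjusted p = 0.00803; edgeR quasi-likelihood test). The GDC value was -0.054 without GDC B, 0.032 without DMSO B and 0.19 without GDC A. E2F5 was the 1 member whose value was higher in COMBO than in GSK apart from RBL2, by 0.19 ± 0.17, which did not pass (adjusted p = 0.388). With library totals as the scale, the COMBO value was -0.24 (adjusted p = 0.128). The ratio of E2F4 to E2F5 counts averaged 4.49 with DMSO, 4.21 with GDC-0941, 5.17 with GSK126 and 3.98 with both, with overlap in every comparison with DMSO (exact permutation test, p from 0.3 to 0.9).

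The atypical repressors E2F7 and E2F8 had the lowest COMBO values of the members, whereas in GSK CCNE2 was the lowest. E2F7 (chr12:77021248-77065569, minus strand) was at 58.1, 55.4 and 57.5 CPM in DMSO and at 41.0, 43.0 and 46.7 CPM in GDC. It was at 19.7, 20.8 and 25.2 CPM in GSK and at 5.98, 6.79 and 6.77 CPM in COMBO. The arms did not overlap, and the COMBO libraries lay close together, far below those of GSK. After GDC-0941 alone E2F7 had a change of -0.38 ± 0.069 on the log2 scale (adjusted p = 0.000202) and after GSK126 alone one of -1.37 ± 0.078 (adjusted p = 3.69e-12). Both together gave -3.12 ± 0.088 (adjusted p = 2.35e-17; edgeR quasi-likelihood test), an 8.72-fold fall.

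E2F8 (chr11:19224063-19241620, minus strand) followed the same order. Its libraries held 38.7, 39.1 and 40.0 CPM in DMSO and 33.0, 32.6 and 31.2 CPM in GDC. GSK libraries were at 11.9, 10.2 and 13.4 CPM, and COMBO libraries at 3.14, 2.84 and 3.13 CPM, from 43 to 64 counts each. Again no arm overlapped another. The log2 fold changes were -0.29 ± 0.069 (adjusted p = 0.00227), -1.74 ± 0.083 (adjusted p = 2.44e-13) and -3.71 ± 0.096 (adjusted p = 7.61e-18; edgeR quasi-likelihood test), the last a 13.0-fold fall. In COMBO, 15 tested genes had a lower log2 fold change than E2F8 and 35 a lower one than E2F7.

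Within the pair, E2F8 had the lower log2 value in GSK and COMBO and E2F7 in GDC. There were 1.50, 1.41 and 1.44 E2F7 counts for each E2F8 count in DMSO and 1.24, 1.32 and 1.49 in GDC, which overlap. The ratio was 1.66, 2.04 and 1.88 in GSK and 1.91, 2.39 and 2.16 in COMBO, both above DMSO without overlap (exact permutation test, two-sided, p = 0.1 each, adjusted p = 0.171). Among E2F4, E2F5, E2F7 and E2F8, the summed level per exon length was 33.6 ± 1.06 RPKM in DMSO and 11.0 ± 0.668 RPKM in COMBO (SD, n = 3). E2F4 held 39.4% ± 2.49 of it in DMSO and 72.2% ± 3.34 in COMBO, E2F7 went from 26.9% ± 1.32 to 9.48% ± 1.17, and E2F8 from 28.3% ± 0.505 to 6.69% ± 0.138.

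Whether the agents acted on a gene independently was asked with an interaction term, the log2 effect of GDC-0941 in the presence of GSK126 minus its effect without it. In 4 members the term passed the test, each time with the COMBO level below the product of the single effects; 21.4% of tested genes passed, and 16.5% did so in that direction. E2F8 had an interaction of -1.68 ± 0.14 (adjusted p = 6.45e-08): the single effects multiply to 9.71 CPM, and 3.04 CPM was measured in COMBO. E2F7 had -1.37 ± 0.13 (adjusted p = 2.03e-07), with 16.7 CPM from the product and 6.51 CPM measured. Put otherwise, GDC-0941 left 76.5% of E2F7 and 82.1% of E2F8 in cells without GSK126, and 29.8% and 25.7% in cells with it. Both terms passed under all 18 alternatives tried, with adjusted p up to 5.92e-06 for E2F7 and 1.39e-06 for E2F8. At a fold of at least 2, these 2 members passed, against 1.11% of tested genes in the same direction.

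The cyclin E genes gave smaller interactions. CCNE1 had -0.50 ± 0.12 (adjusted p = 0.00687), with 10.1 CPM from the product and 7.10 CPM measured in COMBO. CCNE2 had -0.52 ± 0.13 (adjusted p = 0.00868; edgeR quasi-likelihood test), with 19.3 CPM from the product and 13.3 CPM measured. The CCNE2 term missed the threshold without GDC B (-0.38, adjusted p = 0.0652) or GSK A (-0.42, adjusted p = 0.0660), and the CCNE1 term missed it when no low-count filter was used (-0.40, adjusted p = 0.0682). The other 6 members did not pass: RBL1 had -0.28 (95% interval -0.51 to -0.057, adjusted p = 0.0683), E2F4 -0.24, E2F3 -0.15, RBL2 -0.11, E2F5 0.071 and RB1 0.096. The RBL2 interval ran from -0.24 to 0.028, so a departure as large as those of E2F7 and E2F8 lay outside it.

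**Figure D4:**
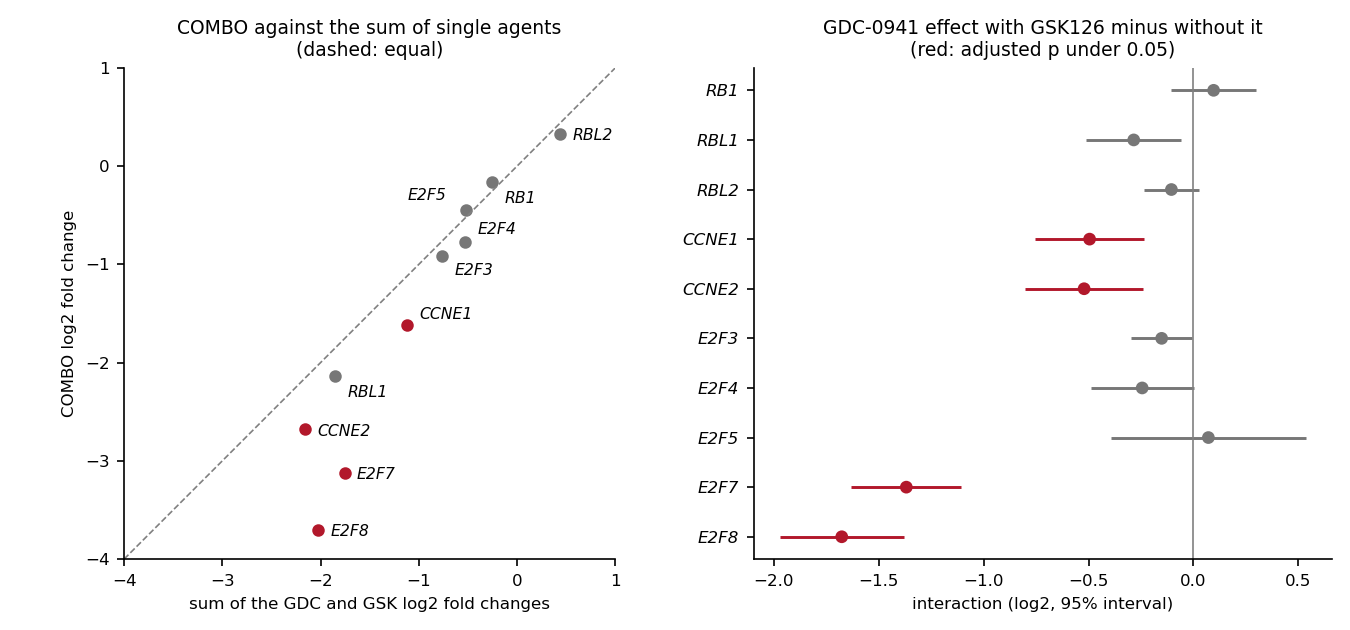
Left, the COMBO log2 fold change of each gene (y axis) against the sum of its GDC and GSK log2 fold changes (x axis), where the dashed line marks equality; right, the interaction term with its 95% interval. E2F7 (-1.37) and E2F8 (-1.68) lie far below the line, CCNE1 and CCNE2 lie about 0.5 below it, and the other 6 genes lie nearer to it.

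Setting COMBO beside each single agent showed what the other agent added. GSK126 on top of GDC-0941 lowered 9 of the 10 members (38.0% of tested genes were lower), with RB1 not called (-0.0084 ± 0.068, adjusted p = 0.915; 95% interval -0.15 to 0.13), and 76.0% of tested genes were called in either direction. The log2 differences included -3.42 ± 0.10 for E2F8, -2.74 ± 0.092 for E2F7, -2.35 ± 0.095 for CCNE2, -1.84 ± 0.076 for RBL1 and -1.46 ± 0.087 for CCNE1, the 5 that passed a fold of 2 (7.48% of tested genes did so downward). GDC-0941 on top of GSK126 changed 8 members, against 45.9% of tested genes, with RBL2 higher (19.0% of tested genes) and 7 lower (26.9%). E2F8 (-1.96 ± 0.12) and E2F7 (-1.75 ± 0.10) passed a fold of 2 there, against 1.87% of tested genes in that direction, while CCNE2 (-0.85 ± 0.11), CCNE1 (-0.65 ± 0.098), RBL1 (-0.58 ± 0.087) and E2F3 (-0.35 ± 0.051) fell by less. RB1 and E2F5 were not called. With library totals as the scale, RB1 stood 0.16 above GDC in COMBO (adjusted p = 0.0289), and its sign there turned under other settings as well, so it has no direction in that comparison.

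Levels of different genes were compared per length of their merged exons. In DMSO, RBL2 led at 21.4 ± 0.886 RPKM and was separate from the next gene, CCNE2, at 19.6 ± 1.30 RPKM. CCNE2, E2F3 (18.3 ± 0.482 RPKM) and RB1 (17.8 ± 1.58 RPKM) were neighbours whose libraries overlapped, as were E2F4 (13.3 ± 1.21 RPKM) and RBL1 (12.6 ± 0.194 RPKM). E2F8 (9.51 ± 0.161 RPKM) stood just above E2F7 (9.06 ± 0.228 RPKM) and CCNE1 (8.86 ± 0.191 RPKM), which overlapped each other, and E2F5 was far below all others at 1.79 ± 0.171 RPKM. In GDC, RBL2 rose to 30.6 ± 1.01 RPKM, and RB1, E2F3 and CCNE2 overlapped between 16.0 and 15.6 RPKM.

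With GSK126 the order changed. CCNE2 dropped from the second place to the fifth, at 5.55 ± 0.283 RPKM, below RB1 (16.5 ± 0.377 RPKM), E2F3 (12.4 ± 0.111 RPKM) and E2F4 (9.80 ± 0.613 RPKM). In COMBO, RBL2 (26.9 ± 0.618 RPKM), RB1 (15.8 ± 1.54 RPKM), E2F3 (9.71 ± 0.274 RPKM) and E2F4 (7.94 ± 0.770 RPKM) were each separate from the next. CCNE2 (3.02 ± 0.586 RPKM), CCNE1 (2.88 ± 0.117 RPKM) and RBL1 (2.87 ± 0.217 RPKM) could not be ordered, and E2F5 (1.27 ± 0.323 RPKM) overlapped E2F7 (1.04 ± 0.0736 RPKM). E2F8 was then the lowest, at 0.734 ± 0.0409 RPKM. With the longest transcript in place of merged exons, DMSO values became 24.0 RPKM for RB1 and 18.8 RPKM for E2F3, and E2F4 stood above E2F3 in GSK (13.5 against 12.8 RPKM) and COMBO (10.9 against 10.01 RPKM), so the order depends on the length used.

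The rest of the pathway was read from 6 lists. Of 25 classic E2F target genes, which encode replication and S phase proteins, 22 fell in GDC, 25 in GSK and 25 in COMBO, where all 25 fell by at least a fold of 2. Over all tested genes, 20.0%, 35.7% and 39.2% were lower in these arms, and 11.2% by a fold of 2 in COMBO. Their median log2 fold change in COMBO was -2.75, between -1.44 for POLA1, a subunit of DNA polymerase alpha, and -5.15 for MCM10, a replication initiation factor. In the interaction, 24 of 25 passed, all lower, against 16.5% of tested genes. The median over the 25 was -1.00, beside -0.063 over all tested genes. EZH2, the target of GSK126 and one of these targets, was at 105 ± 2.75 CPM with DMSO, 81.8 ± 6.93 with GDC-0941, 56.3 ± 0.757 with GSK126 and 34.9 ± 0.815 with both (SD, n = 3).

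**Figure D5:**
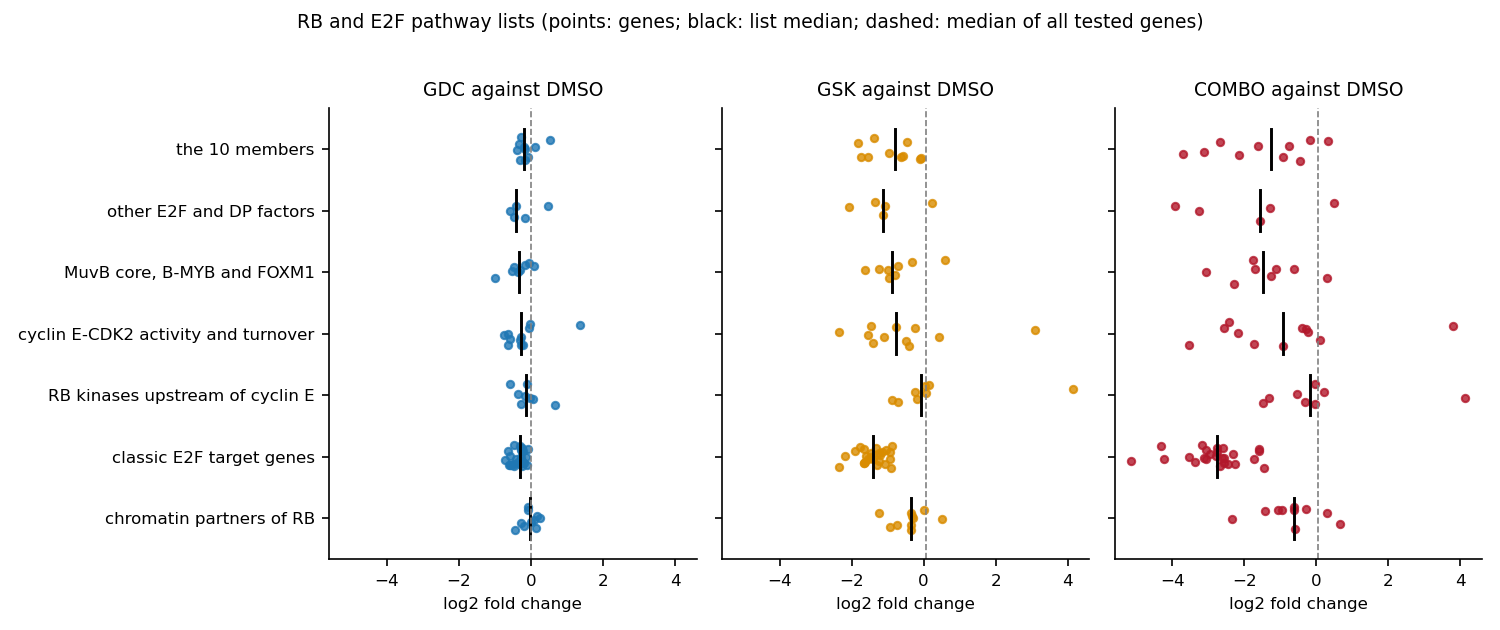
log2 fold change against DMSO (x axis) of each tested gene in the member set and 6 pathway lists (y axis) for the GDC, GSK and COMBO arms; black bars are list medians and the dashed line is the median of all tested genes. In COMBO the E2F targets centre on -2.75 and the members on -1.27. The list labelled RB kinases upstream of cyclin E, which holds cyclins as well as kinases, centres on -0.18.

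Of the other E2F and DP genes, 5 of 6 were tested (TFDP3 was not), and in COMBO 4 fell and 1 rose. This count and the list counts after it stand beside 39.2% lower and 43.3% higher over all tested genes. E2F2, an activator, fell by 3.92, and TFDP2, a DP partner, rose by 0.48 on the log2 scale. The others that fell were E2F1, E2F6 and TFDP1, named here after their values were seen, and E2F1 went from 94.7 CPM in DMSO to 9.90 CPM in COMBO. Of 8 genes of the MuvB core with B-MYB and FOXM1, 7 fell in COMBO and 1 rose, from MYBL2 (B-MYB) at -3.05 to the core subunit LIN37 at 0.31. Their median was -1.47.

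Among genes for cyclin E-CDK2 activity and turnover, 11 of 13 were tested, and in COMBO 9 fell, 1 rose and 1 was not called. CDC25A, the phosphatase that activates CDK2, had -3.53, and CDKN1C, the CDK inhibitor p57, had 3.78. Of 8 cyclin and kinase genes listed upstream of cyclin E, 4 fell, 1 rose and 3 were not called. They ran from CCND3 (cyclin D3) at -1.47 to CCND2 (cyclin D2) at 4.12, with a median of -0.18. Of 10 chromatin partners of RB, 8 fell and 2 rose, from the histone methyltransferase SUV39H1 at -2.34 to the demethylase KDM5A at 0.65. There are 4 genes that stand on 2 lists each.

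Some genes outside the set had nearly the same 3 log2 fold changes as a member. Likeness was taken as the root mean square difference over the GDC, GSK and COMBO values among 11431 candidate genes, which share the DMSO libraries. Nearest to E2F7 was FEN1, a flap endonuclease of replication, at 0.040, with ESCO2 and CDCA5 next. Nearest to E2F8 was CDC45, a subunit of the replicative helicase, at 0.044, followed by ORC6 and RAD54L. CCNE2 was nearest to FANCB (0.066), CDCA4 and BRCA2, and RBL1 to LOC100288413 (0.045), TMEM48 and CHAF1A. RBL2 was nearest to CTBS (0.026), ARHGAP6 and TMCO6, CCNE1 to SNRPF (0.022) and MTHFD1, and E2F3 to DRG1 (0.011), PANK4 and C7orf44. E2F4 was nearest to CDC5L (0.019), CTNNAL1 and CTSL2, E2F5 to OSBPL8 (0.012), LRPPRC and ZNF566, and RB1 to INTS6 (0.010), MAFG and FAM104A.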

How the data were processed

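PolyA RNA of C4.2B cells was sequenced in 4 arms with 3 libraries each. Per the labels and the study's methods, the authors aligned reads to hg38 with STAR and counted them per gene with HTSeq (versions, annotation and strand setting are not given in the sources used here), and they deposited the raw counts of 23228 genes per library, used here as deposited. A table of DESeq2-normalized values for the whole series was not used. The 5 summary lines of HTSeq, which name no gene, were kept out of library sizes, and their shares were read as library quality.

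Counts were fitted in edgeR 4.0.16 (R 4.3.3) with TMM scaling, filterByExpr (14189 of 19935 genes with a count) and the quasi-likelihood test over all 12 libraries (common biological coefficient of variation 0.0499), with Benjamini-Hochberg adjustment over all tested genes and a threshold of 0.05. As alternatives, the DESeq2 1.42.0 test, its size factors or plain library totals as the scale, a filter at a mean of 1 CPM or none, only the arms compared, a replicate block, and fits with 1 library left out were run (19 per comparison, 18 for the interaction). The fits were tested on simulated data. RPKM used merged GENCODE 44 exons, and count ratios used a pseudocount of 0.5 and SciPy 1.17.1. Figures were drawn with Matplotlib 3.10.9.

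The members and gene lists were chosen with earlier results of these data known. All 10 members were named; of other genes, the highest and lowest tested gene of each list in COMBO against DMSO, EZH2 and the 3 genes most like each member (mean log2 CPM of at least 2) were named, and 3 further E2F and DP genes, as said there. Promoter windows were read for 7 of the 10 members. Member windows on chromosome 8, where CCNE2 and E2F5 lie, were left out of the reading. For E2F8 the source held no window, so its promoter was not read. The limit of 3 counts covers counting error only. A few cell type markers and 1 of the like genes are not reported here.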

Additional observations from a re-analysis of the deposited data

Results flagged for a closer look

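The effect of GDC-0941 differed between cells with and without GSK126 in 4 members, by the interaction term of the edgeR quasi-likelihood fit (Benjamini-Hochberg adjusted over 14189 genes). Of all tested genes, 21.4% passed, and 16.5% did so with a negative term, as did 24 of 25 classic E2F target genes. The term was -0.50 for CCNE1 (adjusted p = 0.00687), -0.52 for CCNE2 (adjusted p = 0.00868), -1.37 for E2F7 (adjusted p = 2.03e-07) and -1.68 for E2F8 (adjusted p = 6.45e-08) on the log2 scale. The CCNE2 term no longer passed without GDC B (adjusted p = 0.0652) or GSK A (0.0660), nor the CCNE1 term with no low-count filter (0.0682). In every COMBO library, each of the 4 genes lay below the level that the product of the single effects gives. This restates the term by which they were picked. It also held for RBL1, RBL2, E2F3 and E2F4, whose terms did not pass, so it does not set the 4 genes apart. The share of reads outside genes was highest in COMBO as well, at 21.8%, and its part in these terms was not tested.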

How the results depend on the processing

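The counts of members called, with and without the fold of 2, stayed within 1.5 times their values under every alternative. Of the members' log2 fold changes under alternatives, 1071 kept direction and side of the threshold, 30 passed it newly, 10 no longer passed and 19 turned sign. With library totals as the scale, RB1 turned to 0.046 in COMBO, 0.050 in GSK and 0.16 for COMBO against GDC, and RBL2 in GSK to 0.071. This scale moves the median of all tested genes by 0.15 in GSK and 0.21 in COMBO. The RB1 value of COMBO against GDC, -0.0084, also turned with DESeq2 (0.0023), its size factors (0.0027), no filter (0.0043) and the 1 CPM filter (0.056), and ran from -0.082 to 0.084 over single libraries left out. Such ranges also crossed 0 for RB1 in COMBO against GSK (-0.14 to 0.034), E2F5 in GDC (-0.054 to 0.19) and the E2F5 interaction (-0.028 to 0.27). Scaling by library totals also raises the share of higher genes among those called, to 64.0% in GSK (52.8% otherwise) and 63.3% in COMBO (52.5%), and moves E2F4 in GSK to -0.30. Without a filter that share is 35.9% in GDC (49.98%) and 55.4% for the interaction (22.7%). It also moves under other settings. In GDC it is 39.2% with DESeq2, 40.2% with its size factors, 58.5% with library totals and 39.3% to 48.0% over single libraries left out. For the interaction these are 34.5%, 35.2%, 28.1% and 25.1% to 43.7%. A replicate block leaves it at 50.4% and 23.4%. The directional shares given beside the members are those of the fit with TMM, filterByExpr and all 12 libraries. RB1 in GDC and RBL2 in GSK newly passed with DESeq2 (adjusted p = 0.0255 and 0.0261), with its size factors (0.0269 and 0.0254) and with no filter (0.00186 and 0.00864). RB1 in GDC also passed with a filter at a mean of 1 CPM (0.0349) and with the compared arms only (0.0396), RB1 in GSK with no filter (0.00474), and CCNE1 in GDC with the DESeq2 size factors (0.0373) and the 1 CPM filter (0.0431). Over all genes, 3034 passed the interaction test, and 2014 (without DMSO C) to 2986 (without GSK C) when 1 library was left out. The change of the E2F4 to E2F5 ratio in GDC was -0.11 and turned to 0.035 without GDC B, within a range of -0.32 to 0.035 over single libraries left out; the cause was not tested. Of 18 correlations of same-letter deviations, 2 were above 0.1. Both were between GDC and COMBO, at 0.116 for A and 0.188 for B, with 0.073 for C. Whether the letters pair libraries of these arms is therefore not settled. A replicate block left all member calls in place, with 2919 genes called for the interaction and 5559 in place of 5684 in GDC. Depth limits E2F8 and E2F5 most, with as few as 43 counts in a library.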
